A study of Rattus norvegicus with 10 samples.

Results

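The immediate early genes Fos, Fosb, Jun, Junb, Egr1, Egr2, Egr3, Arc, Nr4a1 and Homer1 were followed in the hippocampus of rats fed a chow or a powdered diet. They are 10 of the 14217 genes named on the array, and all probe sets annotated with exactly 1 of these symbols were taken, which gave 18 of 31042 probe sets. Each of the 10 genes had at least 1 probe set: Homer1 had 5, Jun 3, and Fos and Egr2 2 each. The symbol of each of the 18 probe sets was found in the RefSeq gene table. The C-group was 5 male Wistar rats given solid chow for 8 days, and the P-group was 5 male Wistar rats given powdered feed for the same 8 days. The rats were 3 weeks old when brought in, all of them took powdered feed during an acclimatization, and they are labeled as 4 weeks old. Biotin-labeled cRNA made from 100 ng of total hippocampal RNA of each rat was hybridized to an Affymetrix rat genome array. The study asked whether chewing solid food changes hippocampal gene expression at weaning.

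Immediate early genes are transcribed within minutes of synaptic activity, without new protein synthesis, when calcium entry activates transcription factors such as CREB and SRF that are already bound at their promoters. Most of them encode transcription factors themselves, whereas Arc and the short form of Homer1 act at the synapse. In the hippocampus they are widely used as marks of neurons that were active shortly before the tissue was taken, and their mRNA decays quickly. The time between the last activity or meal and the dissection is not given in the sources used here.

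The promoters of Egr1 and Nr4a1, 2 of the members that varied together, are shown for the response elements of this pathway. That of Egr2 is shown beside them, although its probe sets were nearly constant on these arrays and cannot tell whether it varied. The table of RefSeq promoters used here (assembly GRCr8) matched 6 of the 10 members, namely Egr1, Egr2, Fosb, Homer1, Junb and Nr4a1. It had no entry for Arc, Fos, Jun and Egr3. The 250 bases before the start are printed 5′ to 3′ on the strand of the gene. Capitals mark the core of the cAMP response element, to which CREB binds (TGACG, or CGTCA where it lies on the other strand), and the CArG box, to which SRF binds. Egr1 is given at chr18:26736828-26737077 on the plus strand, Nr4a1 at chr7:134259888-134260137 on the plus strand and Egr2 at chr20:21054442-21054691 on the minus strand.
Egr1: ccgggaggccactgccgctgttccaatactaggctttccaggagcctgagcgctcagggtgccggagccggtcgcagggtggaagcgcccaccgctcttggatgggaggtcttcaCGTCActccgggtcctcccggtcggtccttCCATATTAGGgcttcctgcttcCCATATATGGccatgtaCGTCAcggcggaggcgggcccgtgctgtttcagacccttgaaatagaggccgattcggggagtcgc
Nr4a1: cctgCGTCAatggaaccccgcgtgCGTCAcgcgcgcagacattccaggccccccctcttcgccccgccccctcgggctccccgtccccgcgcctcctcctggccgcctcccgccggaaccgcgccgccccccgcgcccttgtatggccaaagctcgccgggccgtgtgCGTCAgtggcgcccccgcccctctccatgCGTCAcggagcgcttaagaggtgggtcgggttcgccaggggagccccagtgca
Egr2: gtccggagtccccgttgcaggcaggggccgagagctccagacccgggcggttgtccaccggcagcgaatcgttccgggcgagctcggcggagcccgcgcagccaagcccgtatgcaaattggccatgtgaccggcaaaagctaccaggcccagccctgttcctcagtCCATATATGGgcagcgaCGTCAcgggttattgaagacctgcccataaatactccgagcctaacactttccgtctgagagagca
Egr1 held the core 2 times, with first bases at -135 and -66 from the start, and the CArG box 2 times, at -105 and -83. Nr4a1 held the core 4 times, at -246, -226, -82 and -53, and no CArG box. Egr2 held each of them 1 time, the core at -66 and the CArG box at -83. Junb held the core 1 time, at -155. The promoters of Homer1 and Fosb held neither motif in this window and are not printed, although Homer1 probe sets also varied with Egr1 and Nr4a1. Over all 33469 promoters of the table searched on both strands, 18.2% held the core (3.98% at least 2 times) and 1.5% held a CArG box. None of the 6 promoters held the full palindrome TGACGTCA, which contains the core and was found in 1.59% of all promoters, or the AP-1 site TGANTCA, to which Fos and Jun proteins bind and which was found in 6.34%. The motifs do not overlap each other in the sequences shown. A match describes the letters and is no evidence of binding in these rats.

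The deposited values are log2 expression values from qFARMS, a factor model whose output is nearly constant for a probe set whose probes do not vary together. A probe set is called variable here when its standard deviation (SD) over the 10 rats was above 0.01. Only 2904 of the 31042 probe sets (9.36%) were variable, against 10 of the 18 member probe sets (55.6%). The 10 variable member probe sets belonged to Fos, Jun, Egr1, Arc, Nr4a1 and Homer1. Their median SD was 0.222, close to the 0.219 of all variable probe sets. The array of rat 1 of the C-group (C1) stood apart from the others. It held the highest value of 53.5% and the lowest of 22.1% of the variable probe sets, and its median correlation with the other arrays was 0.90, against 0.96 to 0.97 for the rest. Of the 14 variable probe sets for spiked hybridization controls, 13 were highest in C1, although their mean was nearly as high in C4 (10.30 against 10.31). Array medians nevertheless ranged only between 7.0 and 7.02. Most results are therefore given with and without C1. The hippocampal markers Prox1, Zbtb20 and Neurod6 had log2 values of 9.54, 10.76 and 10.52 on their brightest probe sets, averaged over the 10 rats, whereas Tdo2 and Spink8 were nearly constant at 5.73 and 5.87.

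Arc encodes a capsid-like protein that moves to active synapses and drives the internalization of AMPA receptors. Its probe set (1387068_at) had log2 values of 7.55, 7.87, 8.38, 8.11 and 8.36 in C1 to C5, against 8.28, 8.31, 8.40, 8.16 and 7.95 in P1 to P5. C1 and C2 were the lowest of the 10 rats and P5 was the third lowest, and the groups overlapped. The mean was 8.06 ± 0.35 in the C-group and 8.22 ± 0.17 in the P-group (SD, n = 5 rats each). The difference, C-group minus P-group, was -0.16 with a standard error (SE) of 0.17 (adjusted p = 0.927 from limma), and -0.04 without C1. Here and below, fewer neurons that transcribe a gene and less of its mRNA per neuron cannot be told apart in bulk tissue.

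Egr1, a zinc-finger transcription factor needed to maintain long-term potentiation, showed the same order of low rats. Its values (1368321_at) were 9.77, 10.06, 10.45, 10.46 and 10.42 in C1 to C5, against 10.38, 10.51, 10.56, 10.37 and 10.07 in P1 to P5. C1 was again the lowest, C2 and P5 followed at nearly the same level, and the other 7 rats lay between 10.37 and 10.56. The difference was -0.15 (SE 0.16, adjusted p = 0.927 from limma), and -0.03 without C1. Nr4a1 encodes an orphan nuclear receptor that limits the density of excitatory synapses in active pyramidal neurons. Its values (1386935_at) were 7.79, 8.06, 8.41, 8.18 and 8.42 in C1 to C5, against 8.17, 8.32, 8.35, 8.29 and 8.12 in P1 to P5. C1, C2 and P5 were the 3 lowest rats here too. The difference was -0.08 (SE 0.12, adjusted p = 0.938 from limma), and it turned to 0.02 without C1.

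Fos, which pairs with Jun proteins in the AP-1 transcription factor, had a different order. Its values (1375043_at) were 7.32, 6.91, 6.997, 7.06 and 7.32 in C1 to C5, against 6.99, 7.69, 7.37, 7.06 and 6.69 in P1 to P5. P2 was the highest rat and P5 the lowest, so that both extremes lay in the P-group, and C1, the lowest rat for Arc, Egr1 and Nr4a1, was among the 4 highest. The difference was -0.04 (SE 0.19, adjusted p = 0.976 from limma), and -0.09 without C1 and 0.09 without P2. P2 was also the rat with high levels of transcripts of the pineal gland, which makes melatonin. The mean over the 4 variable genes of the pineal list was 9.07 in P2 and at most 6.08 in the other rats, and Pde6g was at 10.87 in P2. Of the 5 measured pineal genes, 3 were called lower in the C-group by rank products, and 0 without P2 or when only variable probe sets were tested. Over all probe sets 0.416% were called lower, and 4.44% of the variable ones. The part of this tissue in the level of Fos in P2 was not tested.

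Jun, the partner of Fos in AP-1, had 2 variable probe sets, both of the kind marked _s, whose probes may match more than 1 transcript. Probe set 1389528_s_at had values of 9.30, 8.86, 8.72, 8.80 and 8.95 in C1 to C5, against 8.90, 8.77, 8.95, 8.96 and 8.97 in P1 to P5. Probe set 1369788_s_at had values of 9.41, 9.21, 9.11, 9.19 and 9.13 in C1 to C5, against 9.11, 9.05, 9.10, 9.22 and 9.18 in P1 to P5. C1 was the highest rat on both, the opposite of its place for Arc, and the other rats of the 2 groups overlapped. The differences were 0.02 (SE 0.11) and 0.08 (SE 0.06), with adjusted p = 0.980 and 0.927 from limma. Without C1 they were -0.08 and 0.03.

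**Figure D1:**
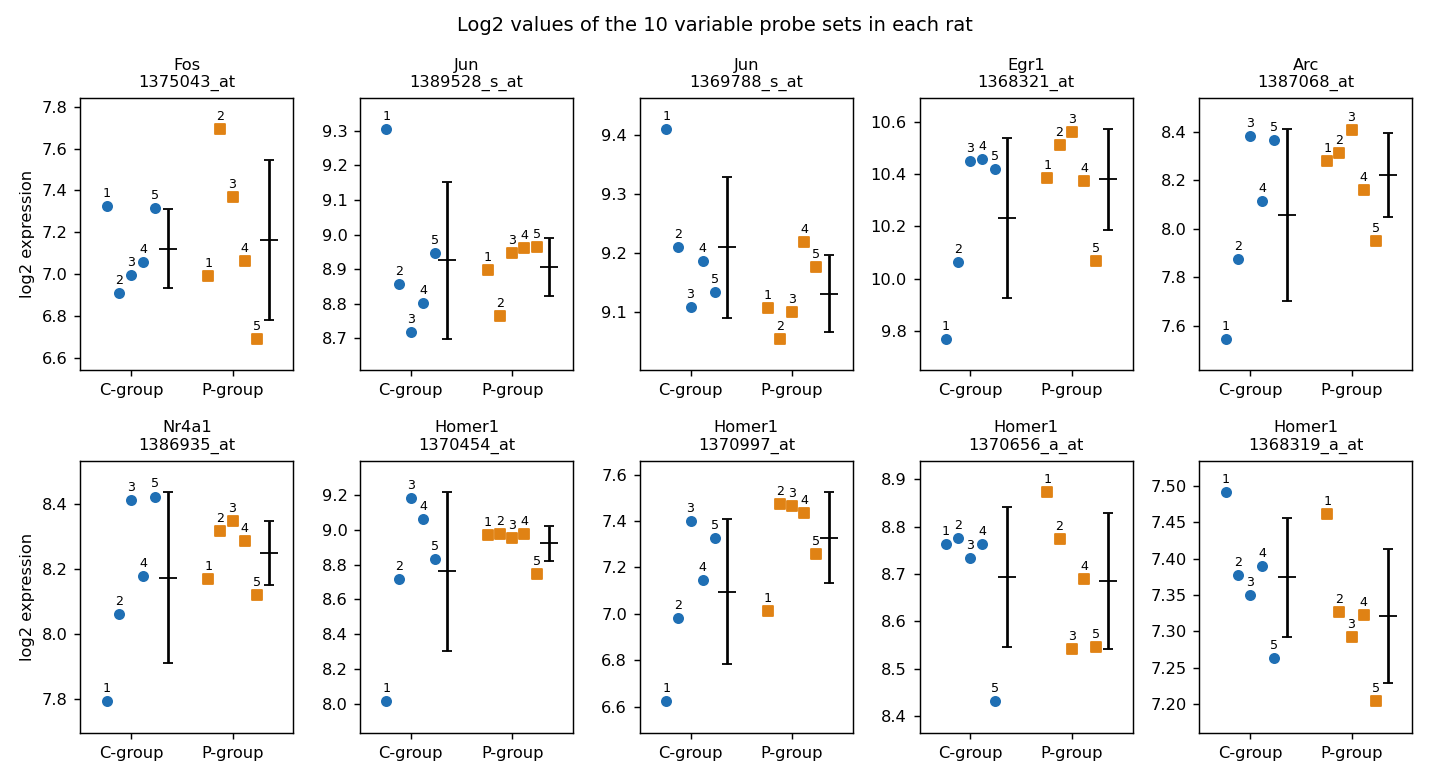
Log2 expression (vertical axes) of the 10 variable probe sets in each rat, C-group as blue circles on the left and P-group as orange squares on the right, numbered by rat, with the mean and SD of each group (n = 5) in black. C1 was the lowest rat for Egr1, Arc, Nr4a1 and the Homer1 probe sets 1370454_at and 1370997_at, and the highest for both Jun probe sets and Homer1 1368319_a_at.

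The other 8 probe sets were nearly constant and say almost nothing of how the rats differed. These were Fosb (1373759_at, 6.33), Junb (1387788_at, 7.85), Egr3 (1369545_at, 6.23), both probe sets of Egr2 (1387306_a_at, 6.72, and 1398266_a_at, 5.99), and the remaining ones of Fos (1371283_at, 6.29), Jun (1374404_at, 7.71) and Homer1 (1368318_at, 9.95), given as the mean log2 value over the 10 rats. None of them ranged over more than 0.000803 log2 units. Fosb, whose short form accumulates over repeated stimulation, Junb, a Jun relative that restrains AP-1, and Egr2 and Egr3, zinc-finger relatives of Egr1, were thus not measured in a way that could show a response to the diet.

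Homer1 encodes scaffold proteins of the postsynaptic density. Its long forms link metabotropic glutamate receptors to Shank and to IP3 receptors, and its short form, induced by activity, lacks the domain for self-assembly and breaks these links. Which form each probe set detects was not determined here. Probe set 1370454_at had values of 8.01, 8.72, 9.18, 9.06 and 8.83 in C1 to C5, against 8.97, 8.97, 8.95, 8.98 and 8.75 in P1 to P5. Probe set 1370997_at had values of 6.62, 6.98, 7.40, 7.15 and 7.33 in C1 to C5, against 7.01, 7.47, 7.46, 7.43 and 7.26 in P1 to P5. On both, C1 was the lowest rat by a wide margin and C2 the next lowest, as for Arc. The differences were -0.16 (SE 0.20, adjusted p = 0.929) and -0.23 (SE 0.16, adjusted p = 0.927 from limma). Without C1 they were 0.02 and -0.11.

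The remaining pair of variable Homer1 probe sets, marked _a for probes shared by alternative transcripts, had another pattern. Probe set 1370656_a_at had values of 8.76, 8.78, 8.73, 8.76 and 8.43 in C1 to C5, against 8.87, 8.77, 8.54, 8.69 and 8.55 in P1 to P5. Probe set 1368319_a_at had values of 7.49, 7.38, 7.35, 7.39 and 7.26 in C1 to C5, against 7.46, 7.33, 7.29, 7.32 and 7.20 in P1 to P5. C5, P3 and P5 were the 3 lowest rats on both. C1 was not low on either, and was the highest rat on 1368319_a_at. The differences were 0.0084 (SE 0.09, adjusted p = 0.992) and 0.05 (SE 0.05, adjusted p = 0.927 from limma). The 2 pairs of Homer1 probe sets thus ordered the rats differently. Within the first pair the correlation was r = 0.79 over the 10 rats (permutation p = 0.0163, rho = 0.54, permutation p = 0.114, adjusted p = 0.0982 and 0.450), and it was 0.07 without the 2 rats farthest from the median, C1 and C2. It was 0.37 without C1 alone and 0.79 without C2 alone, so that it rested mainly on C1. Within the second pair it was r = 0.80 (permutation p = 0.00562, rho = 0.79, permutation p = 0.0084, adjusted p = 0.0674 and 0.183), and 0.84 without C5 and P3. Neither pair passed the threshold after adjustment. Between 1370997_at and 1368319_a_at the correlation was r = -0.74 (permutation p = 0.0148, rho = -0.62, permutation p = 0.0603, adjusted p = 0.0950 and 0.358), and -0.54 without C1 and C2.

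**Figure D2:**
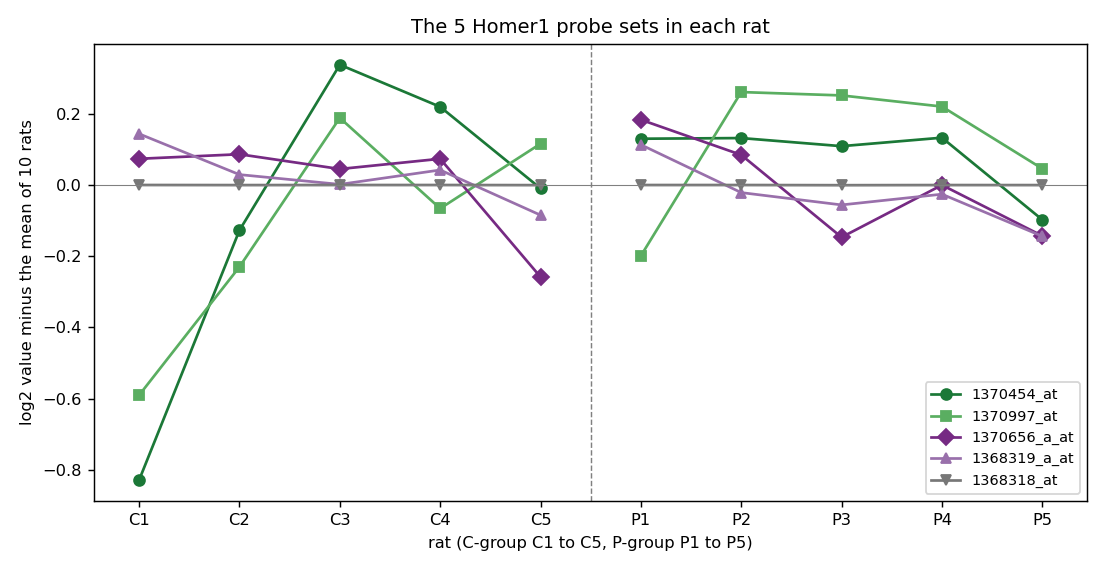
Log2 value of each of the 5 Homer1 probe sets minus its mean over the 10 rats (vertical axis) in the rats of the C-group (left) and the P-group (right). The green probe sets were lowest in C1, the purple ones were low in C5, P3 and P5, and 1368318_at (grey) was constant.

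The C-group and the P-group were then compared over all probe sets. In rank products, the method the study used, each of the 25 pairings of a rat from either group ranks all probe sets by their difference, and calls were made at a false discovery rate (FDR) under 0.05. Of the 18 member probe sets, 0 were called higher in the C-group, against 2% of all probe sets and 21.3% of the variable ones. In the other direction, 1 was called lower, against 0.416% of all probe sets and 4.44% of the variable ones. The member called lower was Homer1 1370997_at (FDR 0.0241, and 0.0396 without C1). The call ended without C2 (FDR 0.0723), P2 (0.117), P3 (0.107), P4 (0.141) or P5 (0.0610), and when only the variable probe sets were tested. P2 is the rat with the pineal transcripts. In limma, which weighs each difference against the spread between rats, 0 of the 18 passed an adjusted p under 0.05, as did 0% of all probe sets. The count at an unadjusted p under 0.05 was 0 of the 18, against 2.95% of all probe sets. In exact permutation tests over all splits of the rats into groups of 5 (two-sided, smallest possible p = 0.00794), the variable members had p between 0.190 and 0.976. None of the 10 variable probe sets separated the groups without overlap, and 6 were lower and 4 higher on average in the C-group. Their median difference was -0.06, against 0.07 over all variable probe sets. Both medians include C1 and are not given without it. Without C1 the differences of the variable members lay between -0.11 and 0.03.

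**Figure D3:**
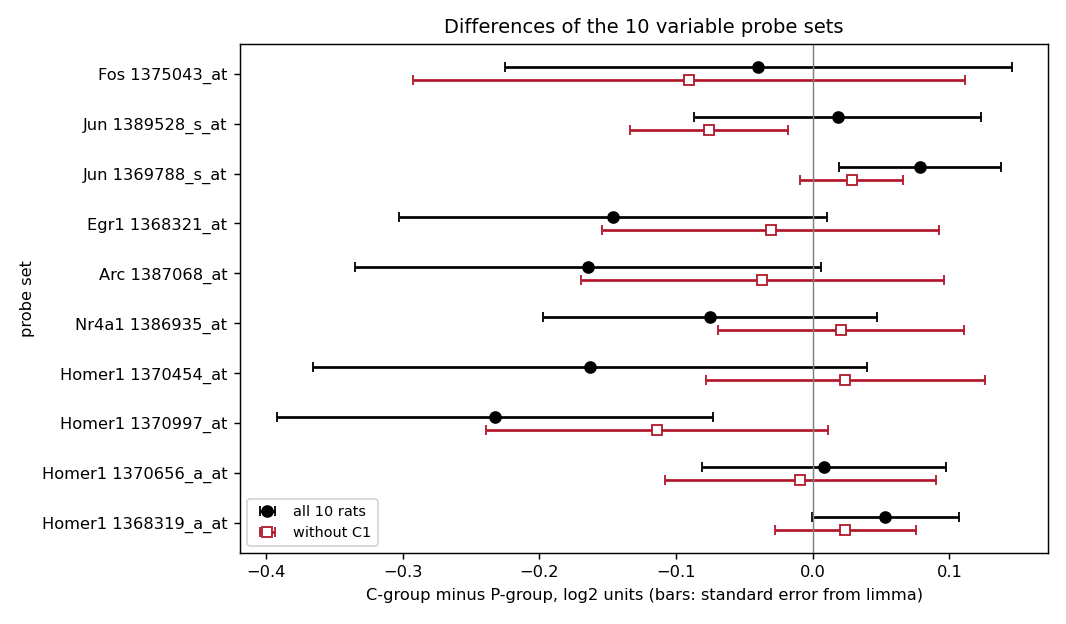
Difference in log2 units, C-group minus P-group (horizontal axis), of each variable probe set with its SE from limma, over all 10 rats (black circles) and without C1 (red squares). For Arc, Egr1, Nr4a1 and Homer1 1370454_at the difference lay between -0.16 and -0.08 with C1 and between -0.04 and 0.02 without it.

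The variation of the members from rat to rat was then compared. Each of the 10 variable member probe sets was correlated with every other variable probe set over the 10 rats, which gave 29030 pairs, and p-values were adjusted over all of them. Of these pairs, 927 (3.19%) had an adjusted p under 0.05. Of the 45 pairs between 2 member probe sets, 6 did, 5 of them positive and 1 negative. By the rank correlation rho, 0 of the 45 passed (10 had an unadjusted p under 0.05, and 22 by r).

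Arc was most closely followed by Nr4a1 and Egr1. Between Arc and Nr4a1, r was 0.95 (permutation p = 0.00011, adjusted p = 0.0337) and rho 0.92 (permutation p = 0.0006, adjusted p = 0.0851). It was 0.83 without the 2 farthest rats, C1 and C2, and 0.89 without C1 (exact permutation p = 0.00178, adjusted p = 0.217). Between Arc and Egr1, r was 0.95 (permutation p = 0.00038, adjusted p = 0.0380) and rho 0.82 (permutation p = 0.00588, adjusted p = 0.160). It was 0.81 without C1 and C2, and 0.89 without C1 (exact permutation p = 0.0039, adjusted p = 0.257). With the group means taken out, r was 0.95 for both pairs. Between Egr1 and Nr4a1, r was 0.89 (permutation p = 0.00083, adjusted p = 0.0432) and rho 0.75 (permutation p = 0.0178, adjusted p = 0.237), and r was 0.62 without C1 and C2. The adjusted p of these 3 pairs was above 0.05 without C1, while r stayed at 0.75 or above.

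**Figure D4:**
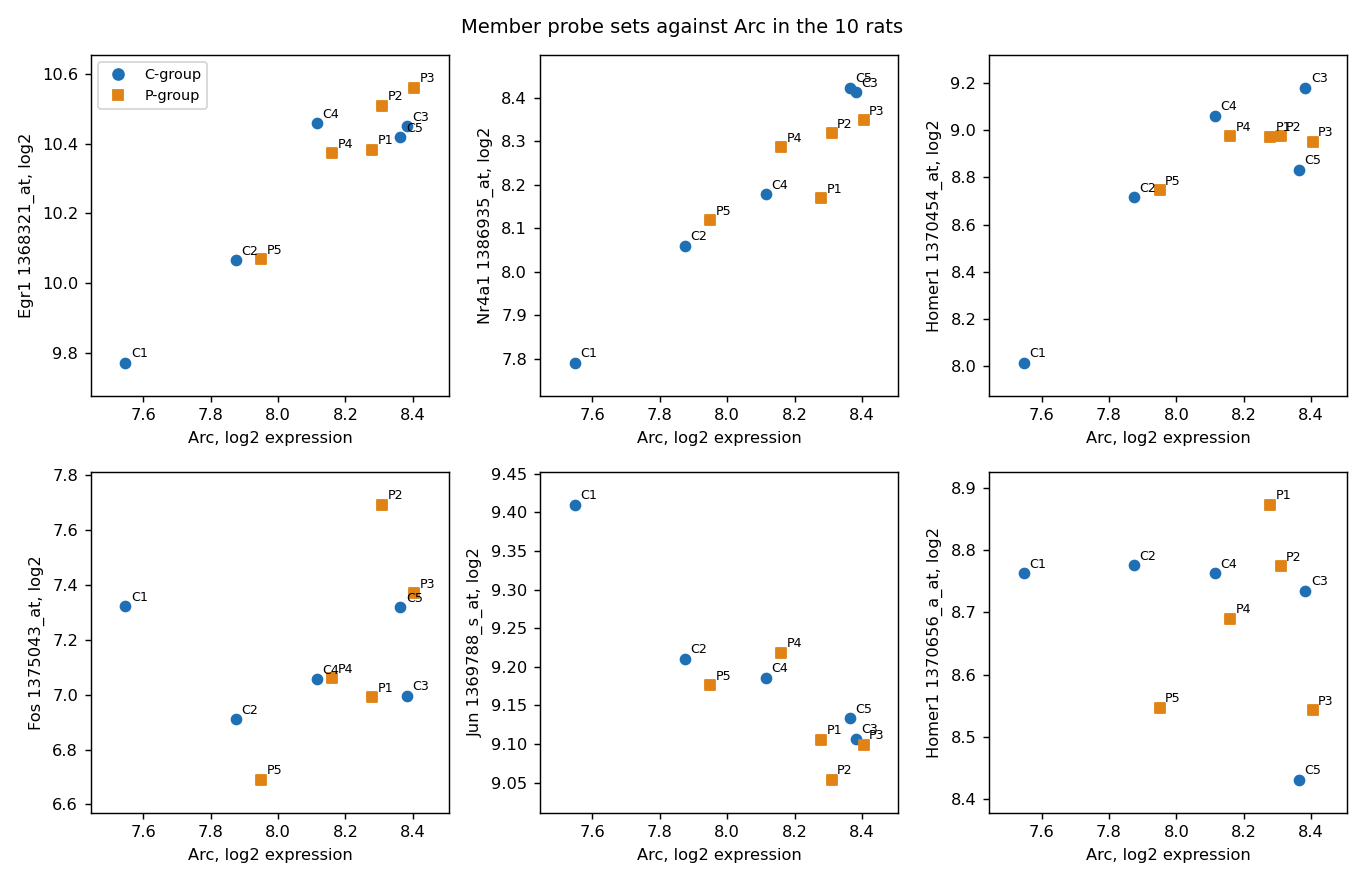
Log2 values of 6 member probe sets (vertical axes) against Arc (horizontal axes) in the 10 rats, C-group as blue circles and P-group as orange squares. C1, C2 and P5, the lowest rats for Arc, were also the lowest for Egr1 and Nr4a1, Jun 1369788_s_at ran opposite to it, and C1 lay off the trend of the other rats for Fos.

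The first pair of Homer1 probe sets followed the same rats. Egr1 and Homer1 1370454_at had r = 0.89 (permutation p = 0.00131, adjusted p = 0.0466) and rho = 0.64 (permutation p = 0.0543, adjusted p = 0.347), and r = 0.62 without C1 and C2 and 0.75 without C1 (exact permutation p = 0.0195, adjusted p = 0.383). Nr4a1 and Homer1 1370997_at had r = 0.91 (permutation p = 0.00099, adjusted p = 0.0438) and rho = 0.76 (permutation p = 0.0151, adjusted p = 0.222), and r = 0.84 without C1 and C5 and 0.78 without C1 (exact permutation p = 0.0164, adjusted p = 0.368). With Arc itself, neither of these Homer1 probe sets passed. For 1370454_at, r with Arc was 0.86 (permutation p = 0.00353, adjusted p = 0.0585) and rho 0.54 (permutation p = 0.115, adjusted p = 0.450), and r was 0.44 without C1 and C2. For 1370997_at, r with Arc was 0.83 (permutation p = 0.00573, adjusted p = 0.0680) and rho 0.76 (permutation p = 0.0148, adjusted p = 0.222), and r was 0.36 without C1 and C2. The second pair of Homer1 probe sets had r = -0.26 and -0.41 with Arc (permutation p = 0.481 and 0.238, adjusted p = 0.627 and 0.385, rho = -0.43 and -0.42, permutation p = 0.218 and 0.230, adjusted p = 0.577 and 0.590), and r = -0.02 and 0.26 without C1 and C2.

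One probe set of Jun ran opposite to Arc. Jun 1369788_s_at and Arc had r = -0.90 (permutation p = 0.0009, adjusted p = 0.0432) and rho = -0.78 (permutation p = 0.0101, adjusted p = 0.196), and r = -0.81 without C1 and P2 and -0.76 without C1 (exact permutation p = 0.0185, adjusted p = 0.378). For Jun 1389528_s_at, r with Arc was -0.70 (permutation p = 0.0335, adjusted p = 0.131) and rho -0.44 (permutation p = 0.207, adjusted p = 0.564), and r was 0.04 without C1 and C3. The 2 Jun probe sets had r = 0.82 with each other (permutation p = 0.0155, adjusted p = 0.0962, rho = 0.54, permutation p = 0.115, adjusted p = 0.450), and 0.30 without C1 and C3. Without C1 alone, r of 1389528_s_at was -0.18 with Arc and 0.38 with the other Jun probe set. Without C3 alone, it was -0.66 and 0.82, so that both relations rested mainly on C1.

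Fos and Arc had no clear relation over all 10 rats, with r = 0.25 (permutation p = 0.480, adjusted p = 0.627) and rho = 0.39 (permutation p = 0.260, adjusted p = 0.621). Without C1, r was 0.65 with Arc, 0.74 with Egr1 and 0.61 with Nr4a1 (exact permutation p = 0.0549, 0.0262 and 0.0823, adjusted p = 0.504, 0.414 and 0.564). Without the 2 rats farthest from the median of Fos, P2 and P5, r with Arc was -0.01. Over 15 pairs of the 6 genes with a variable probe set, taking the probe set with the highest SD of each gene, the median r was 0.25, against 0.10 over all pairs of genes chosen alike. The median size of r, without its sign, was 0.731 against 0.519. Without C1 the median r was 0.61, against 0.01 over all pairs of genes.

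**Figure D5:**
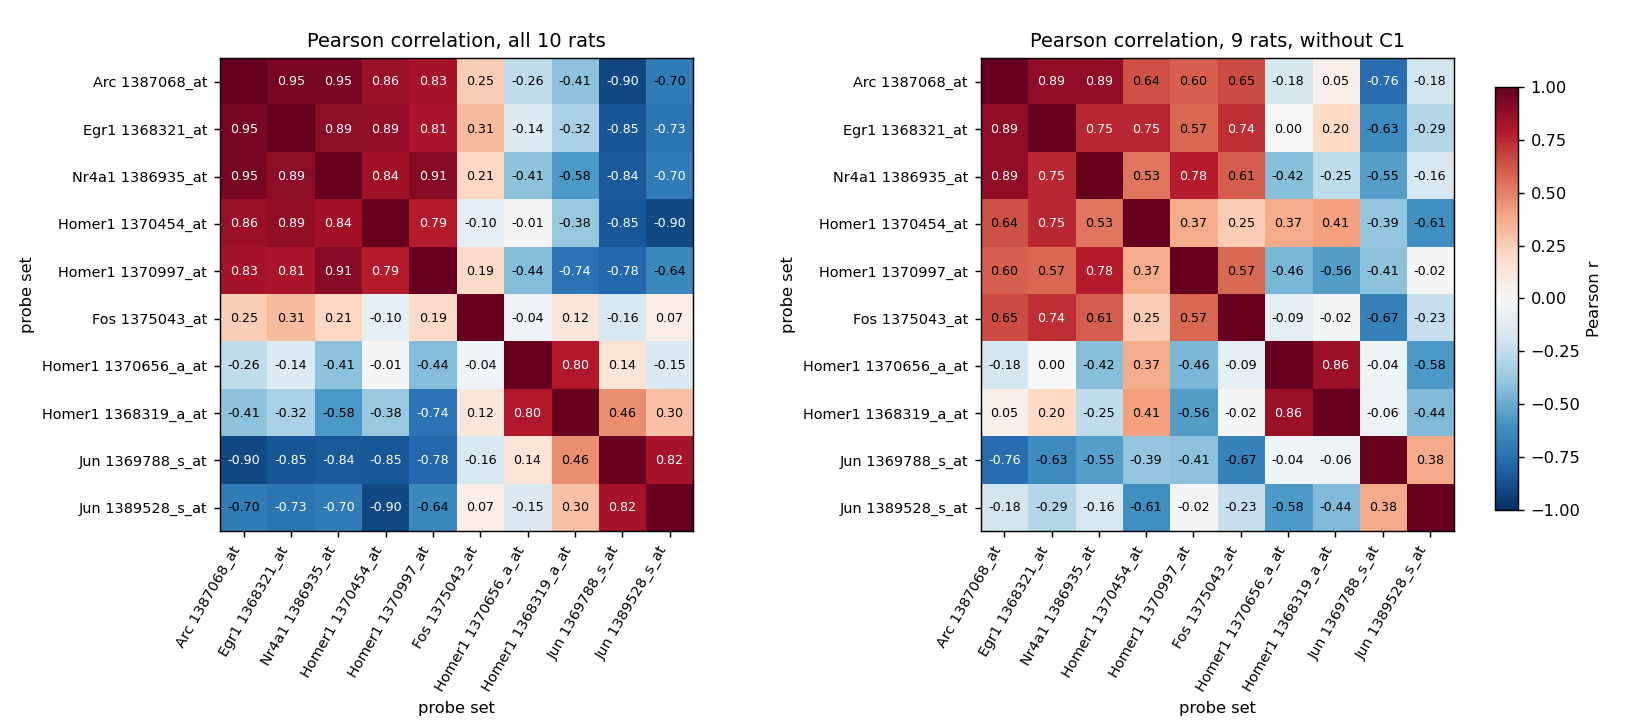
Pearson correlation between the 10 variable member probe sets over all 10 rats (left) and over 9 rats without C1 (right), printed in each cell and colored between -1 and 1. Arc, Egr1 and Nr4a1 had r between 0.89 and 0.95 in the left panel and between 0.75 and 0.89 in the right one.

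The array of C1, lowest for Arc, Egr1 and Nr4a1, was also highest in the spiked controls, with a mean log2 value of 10.31. C4 was nearly as high, at 10.30, and the remaining rats lay between 9.95 and 10.16. Markers of the choroid plexus, which makes cerebrospinal fluid, varied over the rats, and 8 of the 9 measured genes of its list were called higher in the C-group by rank products (3 without C1). They were called on 10 of the 13 probe sets of the list, against 2% of all probe sets and 21.3% of the variable ones. When only variable probe sets were tested, 2 of these genes were called. The mean log2 value over the 8 variable genes of the list was between 6.33 and 9.03 in the C-group, highest in C1, and between 6.12 and 8.54 in the P-group. Ttr, its most abundant transcript, was at 13.59, 13.49, 10.35, 9.09 and 13.60 in C1 to C5, against 7.40, 9.29, 13.58, 10.18 and 12.99 in P1 to P5. Of the 8 genes of the meninges list, 4 were called higher in the C-group, on 5 of its 13 probe sets. None was called when C1, C2 or C5 was left out or when only variable probe sets were tested. The mean over the 5 variable genes of this list was 8.85 in C1 and 8.88 in C2, within the range of 8.05 to 8.93 in the P-group. The mean over the 3 variable genes of the microglia list was highest in C1, at 8.48, and lowest in C2, at 7.87, with the P-group between 8.05 and 8.16. The mean over the oligodendrocyte list was lowest in C1, at 10.73, with the lowest P-group rat at 10.77, and 0 of its genes were called by either method (1 had an unadjusted p under 0.05 in limma). For the 10 variable choroid plexus probe sets, r with Arc lay between -0.49 and -0.24 over the 10 rats, with Ttr at -0.38. Their lowest permutation p was 0.151 (adjusted p = 0.284). Without C1 and C2, r with Arc lay between 0.05, for Ttr, and 0.42. The part of the spiked-control signal and of these cell types in the variation of Arc, Egr1 and Nr4a1 was not tested.

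Markers of the hippocampal neurons themselves also varied with C1 or C2. Wfs1, a marker of CA1 pyramidal neurons (1387356_at), was at 7.63 in C1 and 8.22 in C2, its lowest rats, with the P-group between 8.28 and 8.72. Its r with Arc was 0.85 (permutation p = 0.00433, adjusted p = 0.0623) and rho 0.64 (permutation p = 0.0549, adjusted p = 0.347), and r was 0.43 without C1 and C2. Prox1 (1376672_at) was also lowest in C1, at 9.13. Fibcd1 (1390677_at) and Grik4 (1369163_at), of the same list, went the other way and were highest in C1, at 8.33 and 8.21. For Fibcd1, r with Arc was -0.74 (permutation p = 0.0136, adjusted p = 0.0921) and rho -0.71 (permutation p = 0.0272, adjusted p = 0.273). Its r was -0.70 without C1 and C2. Neurod6, a transcription factor of pyramidal neurons (1393408_at), was at 9.82 in C2, its lowest rat, with the P-group between 10.59 and 10.72. C3 and C4 also lay below every P-group rat, whereas C1 was not low, at 10.63. Rank products called Neurod6 lower in the C-group (FDR 0.00385), and still did so without C2. The call ended without P4 and when only variable probe sets were tested, and limma did not call Neurod6 (adjusted p = 0.927). Zbtb20, a transcription factor of developing hippocampal neurons, was called higher on 3 of its probe sets (lowest FDR 0.00867) but not on its brightest (difference -0.02). It was called on none without C1 or when only variable probe sets were tested. Over all variable probe sets, 21.3% were called higher and 4.44% lower. The mean over the 6 variable genes of the list was lowest in C2, at 8.60, and 8.77 in C1, with the P-group between 8.74 and 8.84. Whether these neurons contributed less RNA in C1 and C2 was not tested.

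The genes outside the members whose values over the 10 rats were most like those of each gene were named by the highest r. Arc was most like Cyp26b1 (1384392_at, r = 0.93, permutation p = 0.00024, adjusted p = 0.0352, rho = 0.79, permutation p = 0.00872, adjusted p = 0.183), which encodes an enzyme that degrades retinoic acid, with r = 0.76 without C1 and C2. Nts, Col24a1, Ndrg3 and Dusp6 followed, with r between 0.88 and 0.90. Without C1 and C2, their r with Arc was 0.55, 0.63, 0.73 and 0.35. Cyp26b1 was also the most like Egr1 (r = 0.93, permutation p = 0.00044, adjusted p = 0.0394, rho = 0.78, permutation p = 0.0109, adjusted p = 0.196), with r = 0.79 without C1 and C2, before Olfm3, Kcnj4, Nts and Mlip at 0.90 to 0.92. For these, r with Egr1 was 0.98, 0.79, 0.62 and 0.85 without C1 and C2. Nr4a1 was most like Col24a1 (1384969_at, r = 0.95, permutation p = 0.00017, adjusted p = 0.0339, rho = 0.93, permutation p = 0.00042, adjusted p = 0.0792), a collagen gene, with r = 0.89 without C1 and C5, before Nts, Ndrg3, Prmt8 and Medag at 0.92 to 0.93. Cyp26b1 had log2 values of 7.36, 8.13, 8.72, 8.61 and 8.61 in C1 to C5, against 8.74, 8.84, 8.67, 8.499 and 8.36 in P1 to P5. It was lowest in C1, C2 and P5, the same 3 rats as Arc.

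The 5 genes most like Fos were others. It was most like Hs3st2 (1374046_at, r = 0.89, permutation p = 0.00069, adjusted p = 0.0423, rho = 0.88, permutation p = 0.00173, adjusted p = 0.111), which encodes a heparan sulfate sulfotransferase, with r = 0.88 without P2 and P5. Lgals1, Esm1, Foxp2 and Lhfpl6 followed with r between 0.82 and 0.84. Without P2 and P5, r was 0.46 for Lgals1 and between 0.84 and 0.91 for Esm1, Foxp2 and Lhfpl6. Of the 2903 other variable probe sets, only 7 had r above 0.8 with Fos, against 99 with Arc, 123 with Egr1 and 260 with Nr4a1. Without C1 this contrast was gone, with 18 for Fos, 7 for Arc, 10 for Egr1 and 17 for Nr4a1. The median size of r with all these probe sets was 0.195 for Fos and 0.547 for Arc over the 10 rats, and 0.232 and 0.214 without C1. All these points share the 10 arrays, C1 among them.

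Other genes that respond to neuronal activity were counted from a list of 50, of which 44 had a probe set and 10 a variable one. Of the 44, 0 were called by rank products or by limma (2 had an unadjusted p under 0.05 in limma). The list had 76 probe sets, of which only 13 were variable, and the nearly constant ones could not have been called. Over all variable probe sets, rank products called 21.3% higher and 4.44% lower. The median difference of the variable probe sets of the list was -0.06, against 0.07 over all variable probe sets, with C1 included in both and not given without it. Dusp6, a phosphatase that switches off ERK, had values (1377064_at) of 7.84, 8.46, 9.08, 8.88 and 9.01 in C1 to C5, against 8.78, 8.80, 8.97, 8.96 and 8.89 in P1 to P5. Ier5 (1389355_at), an immediate early gene linked to the heat shock response, had values of 8.40, 8.78, 8.93, 9.01 and 9.02 in C1 to C5, against 8.86, 9.14, 8.90, 8.82 and 8.70 in P1 to P5. Both were lowest in C1, with r = 0.88 and 0.85 with Arc (permutation p = 0.00271 and 0.00354, adjusted p = 0.0551 and 0.0585, rho = 0.77 and 0.70, permutation p = 0.0125 and 0.0312, adjusted p = 0.209 and 0.289), and r = 0.35 and 0.56 without C1 and C2. Plk2 (1368106_at), a kinase that weakens overactive synapses, was at 9.10 in C1 and between 9.96 and 10.28 in the other 9 rats. Its r with Arc was 0.74 (permutation p = 0.0337, adjusted p = 0.131, rho = 0.31, permutation p = 0.390, adjusted p = 0.721). It was 0.15 without C1 and -0.18 without C1 and C2, so that it rested mainly on C1. Klf6, Klf10 and Rgs2, in contrast, were highest in C1, so that 3 of the 10 genes were highest and 5 lowest in this rat. Of the 10 genes with a variable probe set, which also included Bhlhe40, Dusp5, Klf2 and Nr4a2, 6 had r above 0 with Arc and 0 passed after adjustment (4 had an unadjusted p under 0.05). Their median r with Arc was 0.47, against -0.37 over all variable probe sets, and without C1 it was 0.29 against -0.0049.

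The regulators that act before these genes, and the partners of Homer1, were counted in the same way. Of 16 measured regulators, 6 of them with a variable probe set, 3 were called higher in the C-group by rank products, 0 lower, and 0 by limma (1 had an unadjusted p under 0.05). These were 3 of the 41 probe sets of the list and of its 11 variable ones, against 2% of all probe sets and 21.3% of the variable ones. The 3 regulators were Crebbp, the coactivator of CREB (difference 0.27, SE 0.17, FDR 0.0120), Mef2a (0.13, SE 0.05, FDR 0.0311) and Mef2c (0.27, SE 0.24, FDR 0.0158), transcription factors that restrain the number of synapses. The second variable probe sets of Mef2a (FDR 0.135) and Mef2c (FDR 0.0710) were not called. None of the 3 was called without C1, without C2 or when only variable probe sets were tested. Creb1 itself, which encodes CREB, had only nearly constant probe sets, which could not have been called. Of 9 measured Homer1 partners, which included Homer2, Homer3, Shank1, Shank2, Shank3 and Grm5, 0 were called by either method (0 had an unadjusted p under 0.05), and only the IP3 receptor gene Itpr1 had a variable probe set (difference 0.03, SE 0.05). Of 9 measured genes that respond to glucocorticoids, the stress hormones, only 3 had a variable probe set, and 0 were called by either method (0 had an unadjusted p under 0.05). The partner list held 1 variable probe set of 20, and the glucocorticoid list 3 of 13. Over all variable probe sets, rank products called 21.3% higher and 4.44% lower.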

How the data were processed

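Hippocampal RNA of 5 C-group and 5 P-group rats was hybridized to Affymetrix rat arrays. The log2 values that the authors deposited came from normalization and summarization with qFARMS in R, and were used as given. The scanner files were not used here. Of the deposited table, 57 control probe sets were left out, 0 columns could not be assigned to a sample, and no columns were identical. Probe sets were named from the platform annotation, and those with several symbols were not named, which left out 1 probe set with a member symbol (shared with another gene). Because qFARMS returns a near constant where the probes of a set do not vary together, such a probe set can show no difference whatever the mRNA did. Arrays give no read depth, and 5 rats per group limit the precision.

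Rank products (25 differences without pairing, 100 permutations within arrays, FDR under 0.05 in each direction) and correlations (100000 permutations, two-sided, smallest possible p 1e-05, and all permutations where 9 rats remained) were computed in Python 3.11.15 with numpy 2.4.6, pandas 2.3.3 and scipy 1.17.1. The functions lmFit and eBayes of limma 3.58.1, run in R 4.3.3, gave differences, standard errors and Benjamini-Hochberg adjusted p-values over 31042 probe sets. Figures were drawn with matplotlib 3.10.9. The scripts were tested on simulated data with known changes. All member probe sets are named, with up to 10 variable genes of the list of other activity-regulated genes, the 5 most correlated single-symbol probe sets of Fos, Egr1, Arc and Nr4a1, and genes from the fixed lists. The members, lists and rules were chosen with earlier results of these data known. The alternatives changed the normalization between arrays, the probe sets tested, the variance model, the random seed, the replicate block, the probe set of a gene, the correlation coefficient and the arrays used. Array scan dates were not used.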

Additional observations from a re-analysis of the deposited data

Results flagged for a closer look

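In groups of 5 rats, a value was looked at again when the gap between the highest or lowest rat and its neighbor, divided by the range of the group, was above 0.71. Of 20 groups tested (2 groups of each of 10 variable probe sets), 2 were picked out, and chance picks out about 1 in 20. Homer1 1370454_at was at 8.75 in P5, the lowest P-group rat, with the nearest at 8.95 and a ratio of 0.897. The other 4 P-group rats lay between 8.95 and 8.98. Homer1 1370656_a_at was at 8.43 in C5, the lowest C-group rat, with the nearest at 8.73 and a ratio of 0.880. The other 4 C-group rats lay between 8.73 and 8.78.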

How the results depend on the processing

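Rank products called 1 of the 18 member probe sets, 0 when only probe sets with an SD above 0.01 or only those with a mean above the median were tested, and between 0 and 2 when 1 rat was left out. Arc 1387068_at joined Homer1 1370997_at among those called lower without C3 or without C5. With the replicate block, which pairs the rats by number, 3 were called: Homer1 1370997_at and Arc 1387068_at lower and Homer1 1368319_a_at higher. Of the other activity-regulated genes, 0 were called, 5 with the replicate block, and between 0 and 2 when 1 rat was left out. limma called 0 members under every setting tried, the replicate block included, and the median r between member genes was 0.38 with it. The numbers are not shown to pair the rats, since the deviations of same-numbered rats correlated at 0.28, -0.01, -0.39, 0.48 and 0.45.

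Without 1 rat, the difference turned sign for Fos (between -0.16 and 0.093), Jun 1389528_s_at (-0.076 and 0.0702), Nr4a1 (-0.14 and 0.020), Homer1 1370454_at (-0.27 and 0.024) and Homer1 1370656_a_at (-0.027 and 0.074). So did r between Arc and Homer1 1368319_a_at (-0.69 and 0.053), between Homer1 1370454_at and 1370656_a_at (-0.091 and 0.37) and between Homer1 1370454_at and 1368319_a_at (-0.54 and 0.41). On arrays centred on their medians, r between Homer1 1370454_at and 1370656_a_at was 0.026, against -0.013. The cause was not tested. The 6 passing pairs kept their sign, but Arc with Nr4a1 lost its adjusted p under 0.05 without 4 of the 10 rats (C1, C2, C3 or C5), Arc with Egr1 without 7, Arc with Jun 1369788_s_at without 8, Egr1 with Nr4a1 and Nr4a1 with Homer1 1370997_at without 9, and Egr1 with Homer1 1370454_at without any 1 of the 10 and on arrays centred on their medians. Median r between member genes moved between 0.15 and 0.61 when 1 rat was left out.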
